A study of Homo sapiens with 8 samples.

Results

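HOX genes encode homeodomain transcription factors that set position along the body axis, and their partners of the TALE class (PBX, MEIS, PKNOX and TGIF) are homeodomain proteins that bind DNA beside them or compete for related sites. These genes, with the CDX regulators that act upstream of HOX genes in the embryo, were followed across 8 Affymetrix arrays of HEK293T, a line of human embryonic kidney origin with the SV40 large T antigen. Members were the transcript clusters, the array's units of measurement, whose gene symbol was HOXA to HOXD followed by a number, or PBX2, PBX3, PBX4, MEIS1 to MEIS3, PKNOX1, PKNOX2, TGIF1, TGIF2, CDX1, CDX2 or CDX4. This gave 38 genes of 14884 with a name, measured by 45 transcript clusters, and each gene was represented by its cluster with the highest mean. There were 27 HOX genes (1 of the HOXA, 10 of the HOXB, 7 of the HOXC and 9 of the HOXD cluster), 8 TALE genes and 3 CDX genes. Symbols of the rule with no named cluster, among them most HOXA genes, PKNOX2 and TGIF2, were not analysed here.

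The study lowered or supplied TET1, one of the enzymes that oxidise methylated cytosine in DNA, and each array held cells of a different kind. The 3 lentiviral arrays were a clone with control shRNA (shControl) and 2 clones with different shRNAs against TET1 (shTET1#1 and shTET1#2). The 5 plasmid arrays were cells given an empty vector, wild-type TET1 in the forms CD or FL, or the mutant of either (mTET1-CD, mTET1-FL), and sorted by fluorescence 3 days after transfection. All 8 samples came from the same cell line with no other allele or agent named. The promoter that drove the plasmids is not given in the sources used here. Each shRNA line was a single clone, so clone and shRNA cannot be told apart, and lentiviral and plasmid arrays differ in delivery, sorting and cloning at once. Nothing in the labels says that any 2 arrays were repeat cultures.

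HOX genes lie in 4 clusters and are numbered by paralog group, low numbers being expressed towards the head and high numbers towards the tail. In the embryonic kidney, HOX11 paralogs act with EYA1 and PAX2. Many HOX genes sit in CpG-rich DNA that polycomb and trithorax complexes and DNA methylation are known to mark, which is why a TET1 series bears on them. DNA methylation was not analysed here.

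Values are log2 signals after the RMA procedure, so a difference of 1 is a 2-fold change. Array medians lay between 5.47 and 5.55. A transcript cluster was tested if its signal exceeded the array median on at least 2 of the 8 arrays. Of the 38 members, 36 passed and 34 lay above the median on all 8 arrays. HOXB1 (4.33 to 4.86 over the arrays) and CDX4 (4.38 to 5.15) did not pass, lying below the median on every array, and HOXD12 (5 arrays above) and HOXD1 (7 arrays) lay close to it. The series' named markers of this group, HOXB5 and HOXB6, lay above the median on all 8 arrays. Of the 7 markers fixed for the line, the 4 measured, KRT8, KRT18, VIM and PAX2, were above the median on all 8 arrays. The others, NEFL, NEFM and INA, were not measured under a single name. The 2 measured markers each of blood (CD14, LYZ), fibroblasts (DCN, LUM) and endothelium (PECAM1, VWF) were above it on none, and their summed log2 signals ranged over the arrays from 8.70 to 9.70, 6.11 to 7.48 and 9.29 to 10.39.

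TET1 was read by 2 transcript clusters. The better expressed one stood at 9.29 in shControl, 8.62 in shTET1#1 and 9.14 in shTET1#2, and the second at 5.71, 5.27 and 6.20. The array labelled shTET1#2 thus showed little or no lower TET1 signal, and directions drawn from it are those of the array labelled shTET1#2. With the 4 TET1 plasmids the second cluster lay between 11.80 and 12.10, against 5.86 with the vector. The better expressed cluster stood at 10.42 with TET1-CD, 11.05 with mTET1-CD, 12.22 with TET1-FL and 12.47 with mTET1-FL, against 9.51 with the vector. In that cluster wild-type CD was 1.55-fold below mutant CD and wild-type FL 1.19-fold below mutant FL, so TET1 signal was not equal in the wild-type and mutant arrays compared further on, and its part in those comparisons was not tested.

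RefSeq promoter sequences of assembly GRCh38.p14 were matched by symbol, with some chromosomes left out, for 20 of the 38 members, 11 of them HOX genes. HOXB5, HOXB6, HOXB8, HOXC9 and HOXD9 had none, so the CpG counts do not cover them. The 250 bases before the start are printed for 5 HOXD genes of the same cluster, chosen because they differ in CpG content and in how the plasmid arrays stood against the vector, as described further on. CpG dinucleotides, the sites TET enzymes act on when methylated, are in capitals, and all 5 are given on the plus strand, 5′ to 3′.
HOXD12 (chr2:176099545-176099794): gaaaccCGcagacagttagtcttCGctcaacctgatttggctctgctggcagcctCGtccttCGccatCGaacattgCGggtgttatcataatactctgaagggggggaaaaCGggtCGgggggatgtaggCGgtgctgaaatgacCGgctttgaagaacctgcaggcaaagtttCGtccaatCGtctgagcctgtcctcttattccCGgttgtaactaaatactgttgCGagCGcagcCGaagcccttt
HOXD11 (chr2:176107030-176107279): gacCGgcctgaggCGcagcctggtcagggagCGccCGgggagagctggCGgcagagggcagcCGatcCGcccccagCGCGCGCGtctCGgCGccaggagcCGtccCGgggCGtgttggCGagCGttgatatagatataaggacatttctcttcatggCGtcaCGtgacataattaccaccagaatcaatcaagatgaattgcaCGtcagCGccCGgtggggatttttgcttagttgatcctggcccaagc
HOXD10 (chr2:176116528-176116777): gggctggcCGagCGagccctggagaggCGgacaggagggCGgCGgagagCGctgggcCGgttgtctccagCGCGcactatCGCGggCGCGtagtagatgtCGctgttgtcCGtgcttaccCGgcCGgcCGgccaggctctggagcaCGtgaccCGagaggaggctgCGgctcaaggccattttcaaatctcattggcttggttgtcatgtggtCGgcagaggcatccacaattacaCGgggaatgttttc
HOXD4 (chr2:176151300-176151549): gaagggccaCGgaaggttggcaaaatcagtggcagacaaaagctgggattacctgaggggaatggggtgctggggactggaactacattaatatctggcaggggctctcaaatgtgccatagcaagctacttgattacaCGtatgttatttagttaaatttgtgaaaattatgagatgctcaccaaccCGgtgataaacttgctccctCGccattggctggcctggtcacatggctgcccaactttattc
HOXD1 (chr2:176188418-176188667): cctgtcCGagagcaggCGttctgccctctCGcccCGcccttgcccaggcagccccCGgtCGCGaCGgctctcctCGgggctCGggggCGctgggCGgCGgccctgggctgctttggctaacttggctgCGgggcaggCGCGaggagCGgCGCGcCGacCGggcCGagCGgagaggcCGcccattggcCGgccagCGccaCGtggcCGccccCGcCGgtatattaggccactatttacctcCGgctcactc
HOXD11 and HOXD10 each held 23 CpG in 250 bases, HOXD12 held 16, HOXD1 held 31 and HOXD4 held 4. Over 35114 promoters of the same length the median was 11, and 8 of the 11 HOX promoters exceeded it, with a range of 4 to 31 and a median of 21. The composite site TGATNNAT, read on both strands as the letters a PBX and HOX pair can bind, occurred in 3 of the 11 HOX promoters (HOXA2, HOXB1 and HOXD11) and in 6.47% of all promoters. TGACAG, letters bound by MEIS, PKNOX and TGIF, occurred in 1 (HOXA2) and in 13.03% of all. Both motifs begin with TGA and were counted separately. A match describes letters only.

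**Figure D1:**
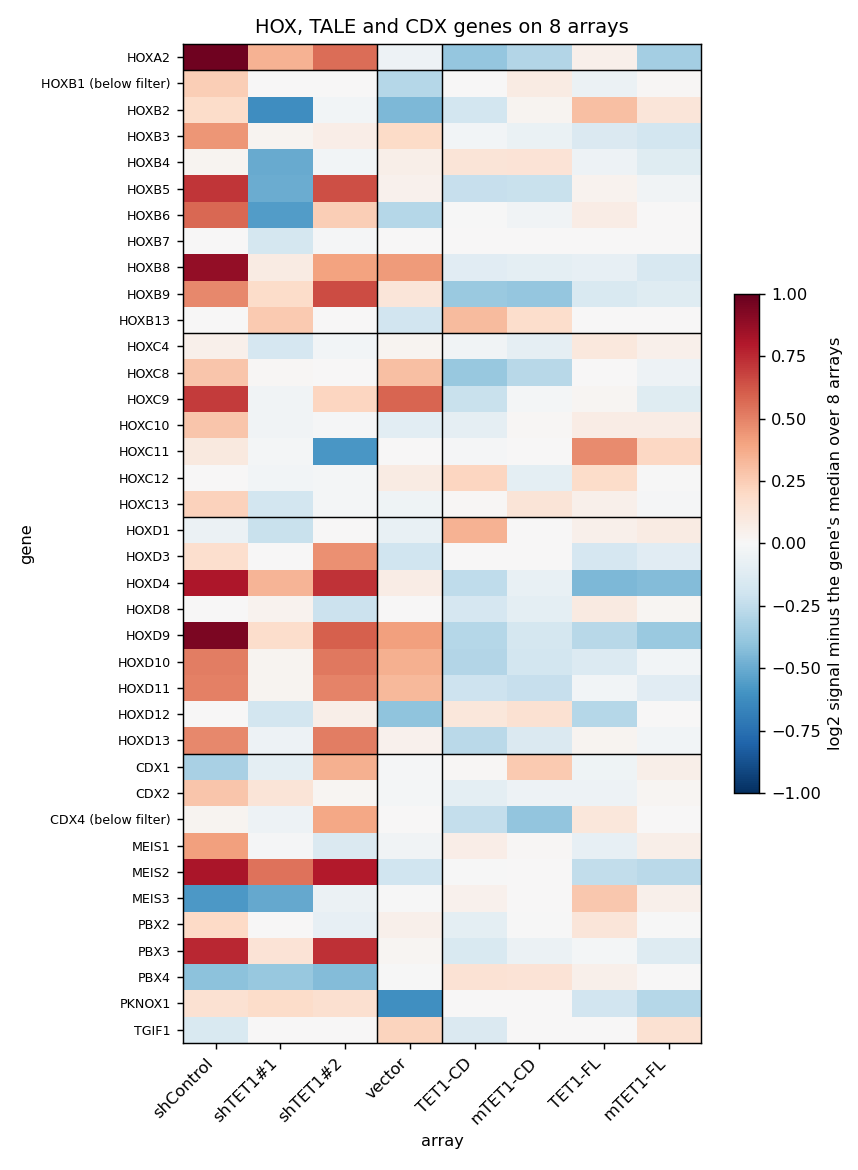
Log2 signal of the 38 members (rows, by HOX cluster and paralog number, then CDX and TALE genes) on the 8 arrays (columns), as the difference from each gene's own median over the arrays, with lines between clusters and between lentiviral, vector and TET1 plasmid arrays. The shControl column is red for most HOX genes, and HOXB8, HOXB9, HOXD4, HOXD9, HOXD10 and HOXD11 are blue or pale on all 4 TET1 plasmid arrays.

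The first comparison asked how HOX and TALE genes stood in cells made to have less TET1. Of the 27 HOX genes, 25 had a fitted difference below 0 between the shTET1 clones and shControl, with a median of -0.27 on the log2 scale, beside 52% of all 28946 clusters tested and a median of -0.010 over them. The 2 exceptions were HOXB13 (0.13 ± 0.18, SE) and HOXD3 (0.059 ± 0.23). No member passed the threshold of an adjusted p under 0.05, the lowest of a member being 0.581 (limma, Benjamini-Hochberg over all clusters). The same test called 0% of all clusters, and 2294 of them (7.93%) had an unadjusted p under 0.05, among them 3 HOX genes (HOXB3, HOXB8 and HOXC9) and MEIS1, all lower, beside 4.56% of clusters lower at that p. In bulk samples, fewer cells of a type and less RNA per cell cannot be told apart. In 19 HOX genes both clones lay below shControl, 18 of them among the 26 that passed the filter, beside 33.1% of all clusters.

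The 2 clones were far apart in size. In shTET1#1 the HOX median was -0.41 with 25 of 27 genes below shControl (beside 48.2% of clusters), and 7 HOX genes were at least 1.5-fold lower (beside 4.29% of all clusters), namely HOXA2, HOXB2, HOXB5, HOXB6, HOXB8, HOXC9 and HOXD9. In the array labelled shTET1#2 the median was -0.084 with 20 of 27 below (beside 53.9%), and only HOXC11 was 1.5-fold lower (beside 7.61%). The median of all clusters on that array was -0.031. When arrays were centred on their medians it became -0.12 and the HOX median -0.17 with 25 of 27 below, and 28.6% rather than 43.9% of the clusters 1.5-fold apart were higher. shTET1#1 was the lowest of the 3 lentiviral arrays for 22 HOX genes, beside 26.7% of clusters. TET1 signal was also lowest in that clone. With 1 array for each clone, whether the HOX values follow TET1 or the clone cannot be told apart.

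HOXB5, a central paralog, stood at 8.66 in shControl, 7.45 in shTET1#1 and 8.59 in shTET1#2. It lay at 7.98 with the vector, at 7.72 with both TET1-CD and its mutant, at 7.98 with TET1-FL and at 7.91 with the FL mutant. Plasmid values are given in that order from here on. shTET1#1 was 2.30-fold below shControl and the lowest of all 8 arrays, while shTET1#2 was 1.05-fold below. The fitted difference was -0.64 ± 0.47 (limma adjusted p = 0.804).

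HOXB6, its neighbour in the cluster, stood at 8.60, 7.47 and 8.27 in the same 3 clones, at 7.74 with the vector and at 8.02, 7.99, 8.10 and 8.03 with the plasmids. It was 2.19-fold lower in shTET1#1 and 1.26-fold lower in shTET1#2 than in shControl (-0.73 ± 0.35, limma adjusted p = 0.705). The vector array, which carries no shRNA, lay below both shControl and shTET1#2 for HOXB5 and HOXB6. Set against the vector instead, shTET1#1 was still lower, by -0.53 for HOXB5 and -0.28 for HOXB6. By contrast, shTET1#2 was higher, by 0.60 and 0.53. The clones' mean differences from the vector, 0.035 and 0.13, thus average clones on opposite sides of it.

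HOXB8, HOXC9 and HOXD9 were the next lowest in the fit. HOXB8, a central paralog and a known target of miR-196, stood at 7.75 in shControl, 6.95 in shTET1#1, 7.28 in shTET1#2 and 7.30 with the vector, a difference of -0.64 ± 0.19 (limma adjusted p = 0.581). HOXC9, of the thoracic paralog group, stood at 8.996, 8.26, 8.51 and 8.88 on those arrays (-0.61 ± 0.20, limma adjusted p = 0.591). HOXD9 stood at 7.80, 7.03, 7.46 and 7.27 (-0.56 ± 0.23, limma adjusted p = 0.661). For HOXB8 and HOXC9 both clones lay below both control arrays, the vector lying only just above shTET1#2 for HOXB8, whereas for HOXD9 the vector lay between the clones. Both clones lay below both controls in 9 of the 26 HOX genes tested, beside 16% of clusters.

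By cluster, the fitted medians were -0.34 for HOXB (9 of 10 below 0), -0.30 for HOXC (7 of 7) and -0.23 for HOXD (8 of 9), and HOXA2 stood at -0.52 ± 0.21. By paralog number they were -0.32 for groups 1 to 3 (5 of 6), -0.27 for groups 4 to 8 (9 of 9) and -0.25 for groups 9 to 13 (11 of 12). In shTET1#1 the medians were -0.47 for both HOXB and HOXD and -0.26 for HOXC, and HOXA2 stood at -0.63. In the array labelled shTET1#2 the medians were -0.28 for HOXC, -0.14 for HOXB and 0.016 for HOXD, and HOXA2 stood at -0.42. The readings were furthest apart for HOXB5, HOXB6 and HOXB2, by 1.14, 0.80 and 0.59. HOXC11 went the other way, standing at 7.41 in shControl, 7.30 in shTET1#1 and 6.73 in shTET1#2, its lowest array of the 8.

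**Figure D2:**
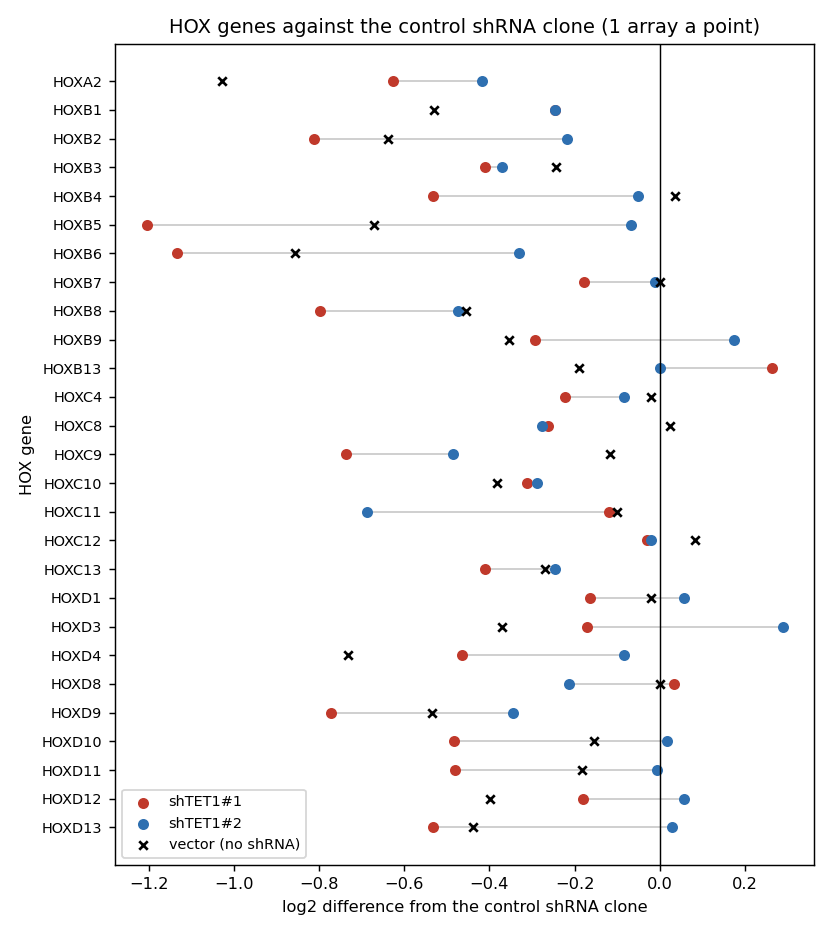
Log2 difference of each HOX gene (rows) from the shControl array in shTET1#1 (red), shTET1#2 (blue) and the empty vector (cross), 1 array a point, with a grey line joining the clones. Red points lie left of 0 for 25 of the 27 genes, HOXB5 and HOXB6 lying furthest left at -1.20 and -1.13, and the vector crosses lie left of 0 for 22 genes.

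The shControl array itself stood high. It exceeded the vector in 22 of the 27 HOX genes, with 3 below it (beside 50.8% of clusters below) and HOXB7 and HOXD8 equal, and the median difference was 0.27. shControl was the highest of the 8 arrays for 12 HOX genes, 11 of them among the 26 that passed (beside 14.4% of clusters), including HOXA2, HOXB5, HOXB6, HOXB8, HOXC9 and HOXD9. With the vector in place of shControl the HOX median was -0.032 and 15 of 27 genes were below 0, with 18 below in shTET1#1 (median -0.14, beside 50.3% of clusters) and 10 in shTET1#2 (median 0.17, beside 51.3%). The differences against shControl and against the vector use the same clone arrays, and whether the clones were low or this control clone was high cannot be told apart with 1 array of each.

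TALE genes did not share 1 direction in the clones. MEIS1, a HOX cofactor, stood at 7.39 in shControl, 6.97 in shTET1#1 and 6.84 in shTET1#2 (-0.49 ± 0.16, limma adjusted p = 0.603), with 6.95 on the vector array and 6.90 to 7.05 with the plasmids. It was thus shControl that lay apart from the other 7 arrays. PBX3 stood at 7.82, 7.197 and 7.79 in the 3 clones, 1.5-fold lower only in shTET1#1. PBX2 differed from shControl by -0.20 and -0.29 in the 2 clones. CDX1 (0.46 ± 0.23), MEIS3 (0.29 ± 0.24), TGIF1 (0.15 ± 0.14) and PKNOX1 (0.017 ± 0.15) were above shControl in both clones, and CDX2 (-0.20 ± 0.15) was below in both. Of the 11 TALE and CDX genes, 5 had fitted differences below 0 and the median was 0.00091. None of those tested passed.

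The second comparison was between the 4 arrays with TET1 plasmids and the array with the vector. HOX genes lay on both sides, 16 of 27 below the vector in the fit, 10 above and HOXB7 equal, with a median of -0.037, beside 49.7% of clusters below and a median of 0.0014. By cluster the medians were -0.018 for HOXB, -0.0048 for HOXC and -0.15 for HOXD, with HOXA2 at -0.19. Genes numbered 8 to 11 had a median of -0.47 with 8 of 10 below 0, and groups 12 and 13 a median of 0.087 with 2 of 5 below, both groupings made after the values were seen and not tested. Groups 1 to 3 had a median of 0.16 with 2 of 6 below, groups 4 to 8 of -0.038 and groups 9 to 13 of -0.076. No cluster passed (limma, 0%, with 4352 at an unadjusted p under 0.05, or 15%). The lowest adjusted p of a member was 0.237, and 4 HOX genes (HOXB8, HOXC8, HOXC9 and HOXD9), all lower, and PKNOX1, higher, had an unadjusted p under 0.05, beside 6.26% of clusters lower and 8.78% higher at that p.

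HOXD9 stood at 6.57 with TET1-CD, 6.69 with mTET1-CD, 6.58 with TET1-FL and 6.49 with mTET1-FL, against 7.27 with the vector and 7.03 to 7.80 in the 3 clones. The 4 plasmid arrays thus lay below all 4 others without overlap, and the fitted difference was -0.68 ± 0.21 (limma adjusted p = 0.263). HOXB8 likewise stood at 6.76, 6.78, 6.79 and 6.72, all below the 6.95 to 7.75 of the other 4 arrays (-0.53 ± 0.18, limma adjusted p = 0.286).

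HOXC9 stood at 8.07, 8.27, 8.31 and 8.17 with the plasmids and at 8.88 with the vector (-0.67 ± 0.18, limma adjusted p = 0.237). Its plasmid values overlapped that of shTET1#1 at 8.26. HOXC8, the neighbouring gene, stood at 6.76 and 6.86 with the CD plasmids and at 7.14 and 7.09 with the FL plasmids, against 7.44 with the vector (-0.48 ± 0.14, limma adjusted p = 0.248). For HOXC8, shControl stood at 7.42, shTET1#1 at 7.15 and shTET1#2 at 7.14. The vector was thus its highest array, and the FL plasmids lay close to the shTET1 clones. All 4 plasmids were below the vector for both genes.

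In the HOXD cluster, HOXD10 stood at 10.05, 10.17, 10.21 and 10.32 with the plasmids, 10.71 with the vector and 10.38 to 10.88 in the clones (-0.52 ± 0.22, limma adjusted p = 0.368). HOXD11, a kidney-patterning paralog, stood at 8.30, 8.28, 8.49 and 8.396 against 8.83 with the vector and 8.53 to 9.02 in the clones (-0.47 ± 0.22, limma adjusted p = 0.393). HOXD4 stood at 7.45, 7.62, 7.25 and 7.27 against 7.78 with the vector. In both transcript clusters of HOXD4 all 3 clones lay above the vector, but in the second cluster TET1-CD, at 6.84, did not lie below the vector at 6.81. HOXD13 differed from the vector by -0.31 to -0.020 with the 4 plasmids, and HOXD8, between HOXD9 and HOXD4, lay from -0.17 to 0.092.

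In all, 7 of the 27 HOX genes had the 4 plasmid arrays below the other 4 arrays without overlap (HOXB3, HOXB8, HOXB9, HOXD4, HOXD9, HOXD10 and HOXD11), beside 5.79% of clusters. None had them above (beside 7.89%). The count was 8 without the vector array (beside 11.2% of clusters in that setting), 10 without shTET1#1 (beside 7.26%) and 7 after centring (beside 6.67%). With all arrays kept, the log2 gap to the nearest other array was only 0.047 for HOXD11, 0.056 for HOXB3 and 0.061 for HOXD10. It was 0.15 to 0.34 for the rest of the 7 genes. Against the vector alone, 11 HOX genes lay below with all 4 plasmids (beside 27.2%) and 9 above, 8 of these among the 26 that passed the filter (beside 27.2%). Any deviation of the single vector array is shared by all 4 differences, and delivery differs between the plasmid arrays and the clones.

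The HOX genes above the vector were led by HOXB2, an anterior paralog, which stood at 7.91, 8.13, 8.402 and 8.22 with the plasmids and 7.65 with the vector (0.52 ± 0.27, limma adjusted p = 0.439). shControl at 8.29 and shTET1#2 at 8.07 lay within the plasmid range, and only shTET1#1 at 7.48 was below the vector. HOXD12 (0.39 ± 0.17), HOXB13 (0.31 ± 0.17) and HOXB6 (0.29 ± 0.32) followed, HOXD12 with signals near the array medians. HOXB1, below the median everywhere, was 0.22 to 0.37 above the vector. The vector array was the lowest of the 8 for HOXD12, HOXB13, HOXB1, HOXC10 and HOXD3, so the clones lay above it too. HOXB2, HOXB6, HOXC13 and HOXD1 were also above it with all 4 plasmids, but shTET1#1 lay below the vector for these. Of the 8 HOXD genes with a promoter sequence, HOXD1 (31 CpG), HOXD3 (21) and HOXD12 (16) were above the vector with all 4 plasmids. HOXD10 and HOXD11 (23 each), HOXD13 (21) and HOXD4 (4) were below it with all 4, and HOXD8 (28) lay on both sides. CpG counts of the genes above and below thus overlapped.

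**Figure D3:**
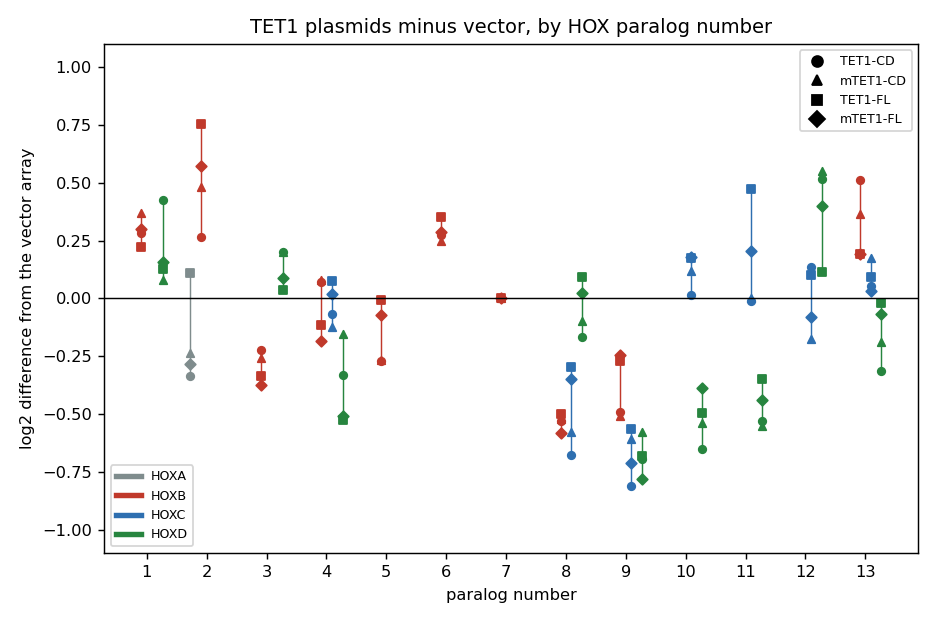
Log2 difference of each TET1 plasmid array from the vector array (y) by HOX paralog number (x), coloured by cluster, with a marker for each plasmid and a line over the range of the 4. HOXC9 and HOXD9 lie between -0.81 and -0.56. HOXD8, HOXC10 and HOXC11, also of paralogs 8 to 11, lie between -0.17 and 0.47, and that grouping was made after the values were seen.

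PKNOX1, a TALE partner of PBX, stood at 7.22, 7.22, 7.03 and 6.94 with the plasmids and at 6.61 with the vector (0.50 ± 0.13, limma adjusted p = 0.237). The 3 clones stood at 7.37 to 7.41, so the vector array was the lowest of the 8 for this gene and the plasmids lay between. TGIF1, a repressor of the class, differed from the vector by -0.37 to -0.076 with the 4 plasmids (-0.22 ± 0.13), and PBX3 by -0.17 to -0.039. PBX4 and MEIS3 were above the vector with all 4, by 0.0097 to 0.15 and 0.0090 to 0.27. The median of the 11 TALE and CDX genes was 0.045, 5 of them being below 0.

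Several TALE genes instead separated the lentiviral from the plasmid arrays, a contrast that mixes delivery, sorting, cloning and time. MEIS2, a HOX cofactor, stood at 8.10, 7.84 and 8.08 in the 3 clones and at 7.02 to 7.29 on the other 5 arrays. A second MEIS2 transcript cluster lay below the median on every array and did not separate them. It stood at 4.44 to 4.87 in the clones and at 4.65 to 4.91 elsewhere. PBX4 was at 6.73 to 6.78 in the clones and at 7.16 to 7.31 elsewhere. Of the 11 TALE and CDX genes, 4 (CDX2, MEIS2, PBX3 and PKNOX1) had all 3 clones above the other 5 arrays (beside 7.67% of clusters) and 2 (MEIS3 and PBX4) had them below (beside 8.18%). Among HOX genes, HOXA2, HOXB9 and HOXD4 had all 3 clones above and none had them below. HOXA2 stood at 8.30, 7.68 and 7.88 in the clones and at 6.94 to 7.38 on the other arrays.

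The next comparison, wild-type minus mutant plasmid, asked what differed between supplied wild-type TET1 and its mutant, whose catalytic activity was not measured here. The fitted HOX median was -0.00060 with 14 of 27 below 0 and 12 above (beside 49% of clusters below). Within CD the median was -0.013 with 17 genes below 0 (beside 47.7%), and within FL it was 0.055 with 8 below (beside 47.4%). Of the 26 HOX genes tested, 14 had opposite signs in CD and FL (beside 46.1% of clusters). No HOX gene was 1.5-fold apart in either construct, where 1.21% of clusters were that much lower and 1.78% higher with CD, and 2.66% lower and 1.64% higher with FL. No member had an unadjusted p under 0.05, none passed, and limma called 0% of clusters, with 567 (1.96%) at an unadjusted p under 0.05.

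Among genes whose CD and FL readings had the same sign, HOXC12 was the highest, reading 0.31 and 0.18 (0.25 ± 0.12, limma adjusted p = 1), followed by MEIS3 (0.13 ± 0.19), HOXD11 (0.055 ± 0.19) and HOXC4 (0.055 ± 0.13). CDX1 (-0.18 ± 0.19), HOXD12 (-0.16 ± 0.15), TGIF1 (-0.15 ± 0.12), HOXD10 (-0.11 ± 0.20) and HOXD4 (-0.096 ± 0.17) were the lowest. HOXB5 (0.031 ± 0.38) and HOXB6 (0.045 ± 0.28) had small fitted differences with wide errors, since the fit pools the gap between the shRNA clones into them. HOXD9, HOXB8 and HOXC9, the lowest against the vector, differed between wild-type and mutant by -0.0093 ± 0.19, 0.034 ± 0.16 and -0.030 ± 0.16. HOXA2, HOXB2 and HOXD1 had the most unequal readings, HOXA2 reading 0.39 with FL and -0.096 with CD.

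**Figure D4:**
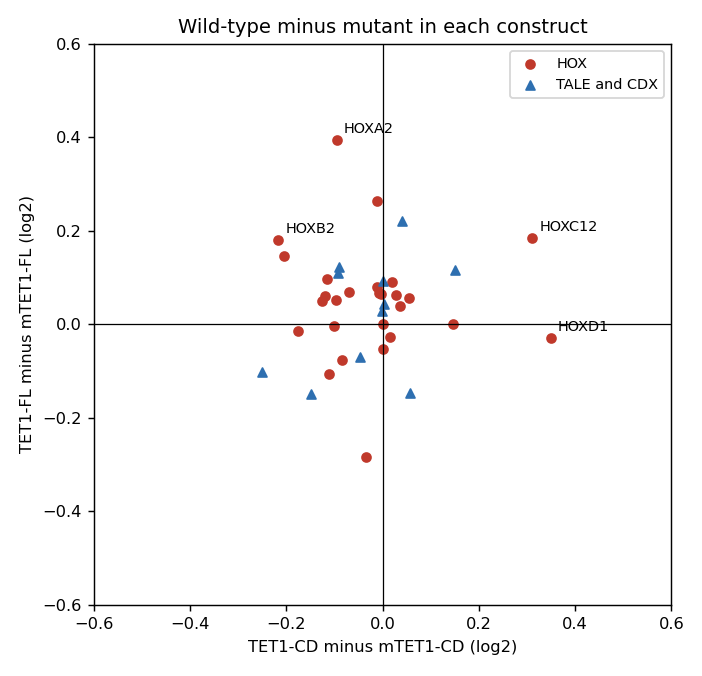
Wild-type minus mutant log2 difference in the CD construct (x) and the FL construct (y), 1 point a gene, for HOX genes (red) and TALE and CDX genes (blue triangles). All 38 points lie between -0.28 and 0.39 on both axes, HOXA2 highest with FL.

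Between the constructs, FL minus CD, HOX genes had a median of 0.059 with 11 of 27 below 0, beside 49.3% of clusters and a median of 0.0031. Of the 26 tested, 12 were higher with FL in both the wild-type and the mutant pair (beside 33.5% of clusters) and 6 were lower in both (beside 32%). HOXC8 was furthest in terms of its error, at 0.30 ± 0.12 (limma adjusted p = 0.384). HOXC11 was the highest at 0.34 ± 0.23, with 7.30 and 7.31 with the CD plasmids and 7.78 and 7.52 with the FL plasmids, followed by HOXB2 (0.29 ± 0.24), HOXB9 (0.24 ± 0.19) and HOXB5 (0.23 ± 0.38). HOXD12 (-0.28 ± 0.15), HOXD4 (-0.28 ± 0.17), MEIS2 (-0.26 ± 0.14), HOXB13 (-0.25 ± 0.15) and PKNOX1 (-0.24 ± 0.12) were the lowest. None passed (limma, 0% of clusters), and 3975 clusters (13.7%) but no member had an unadjusted p under 0.05.

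Noncoding genes of the HOX clusters were read from a list of 24, of which 14 were measured and 10 passed the filter. In the clones 10 of 14 were below shControl, with a median of -0.15, and 0 of the 10 tested passed in any of the 4 contrasts. The pair with the largest differences were microRNA genes, short RNAs that repress messages through bases 2 to 8, the seed, given in capitals. MIR196B lies in the HOXA cluster and MIR196A1 and MIR196A2 in the HOXB and HOXC clusters, and their 5p arms share a seed, whereas MIR615, in the HOXC cluster, has another.
hsa-miR-196b-5p: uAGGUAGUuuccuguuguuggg
hsa-miR-196a-5p: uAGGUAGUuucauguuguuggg
hsa-miR-615-3p: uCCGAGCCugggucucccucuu
The miR-196 arms differ at 1 base, A12C counted from 1 at the 5′ end with miR-196a first. The array reads each gene's transcript and does not separate arms. MIR196B stood at 8.96 in shControl, 7.85 in shTET1#1 and 8.64 in shTET1#2, at 8.51 with the vector and at 7.80, 8.06, 8.33 and 8.32 with the plasmids. shTET1#1 was thus 2.16-fold below shControl, and the fitted difference was -0.72 ± 0.35 (limma adjusted p = 0.706). MIR615 stood at 6.05, 4.98 and 6.01 in the clones, above the array median only in shControl and shTET1#2, and at 5.15 to 5.48 on the other arrays (-0.55 ± 0.43, limma adjusted p = 0.815). MIR615 passed the filter only through shControl and shTET1#2, so its reading in shTET1#1, below that array's median, describes that array alone, and the vector lay nearer to it than to shControl. MIR196A1, MIR196A2 and MIR10B lay below the median on every array. Among the long noncoding RNAs, HOXA11-AS stood at 7.00 in shControl, 6.30 in shTET1#1 and 6.68 in shTET1#2 with 6.35 on the vector array, and HOXD-AS2 at 6.10, 5.57 and 5.62 with 5.505 to 5.62 on all others. In HOXD-AS2, as in MEIS1, shControl was thus the array that lay apart. HOTAIR, which lies in the HOXC cluster, differed by -0.21 ± 0.16 in the clones and by -0.34 ± 0.15 with the plasmids. Its signals, 5.33 to 5.96, were near the array medians and above them on 5 of the 8 arrays.

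**Figure D5:**
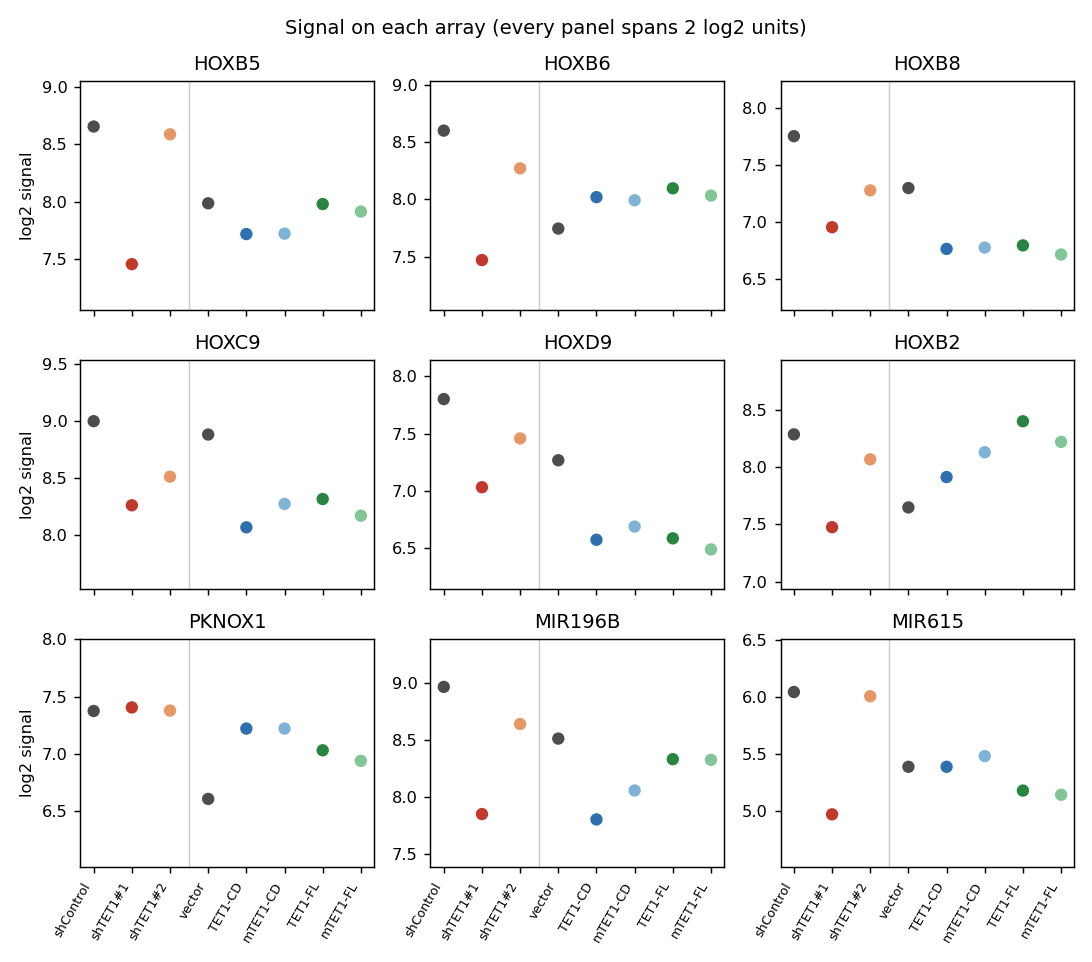
Log2 signal (y) on each of the 8 arrays (x) for HOXB5, HOXB6, HOXB8, HOXC9, HOXD9, HOXB2, PKNOX1, MIR196B and MIR615, each panel spanning 2 log2 units and 1 point an array, with a grey line between lentiviral and plasmid arrays. HOXB5 and MIR615 show shTET1#1 alone far below the other lentiviral arrays, HOXB8 and HOXD9 show the 4 TET1 plasmids below all others, and PKNOX1 shows the vector alone low.

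Genes beside the HOX clusters were set next to them. Of 10 measured neighbours, 2 were below shControl in the clones, with a median of 0.11, led by PRAC1 (-0.42, below the median on every array) and CALCOCO1 (0.31 ± 0.16). Against the vector 4 of 10 were below with the plasmids. None of the 8 tested passed in any of the 4 contrasts.

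Polycomb and trithorax genes, which keep HOX genes silent or active, had 16 of 25 measured and tested, and none passed. In the clones 11 were below shControl with a median of -0.023, the largest differences being those of KDM6B (0.42 ± 0.16), a demethylase of the polycomb mark, and EZH1 (0.33 ± 0.15), a methyltransferase of that mark. With the plasmids, EZH1 stood at 9.19 to 9.39 against 9.97 with the vector (-0.69 ± 0.14, limma adjusted p = 0.19). As the 3 clones stood at 9.10 to 9.47, the vector array alone was high. EZH2, its homologue, stood at 10.32, 10.27, 9.84 and 10.01 against 9.59 (0.52 ± 0.17, limma adjusted p = 0.278). KDM6A was above the vector (0.45 ± 0.16) and CBX2, a reader of the polycomb mark, below it (-0.43 ± 0.16). These values come from the same arrays as those of the HOX genes, and any link between them was not tested.

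Retinoic acid, which activates HOX genes in order of paralog number, was represented by 4 measured genes of 18. All 4 were tested, and none had an adjusted p under 0.05. CRABP2, a retinoic acid carrier, stood at 7.66 in shControl, 6.78 in shTET1#1 and 6.81 in shTET1#2 and at 7.87 to 8.62 on the plasmid and vector arrays (-0.87 ± 0.19, limma adjusted p = 0.497). DHRS3, a retinaldehyde reductase, stood at 6.98, 6.12 and 6.84, low in shTET1#1 only (-0.50 ± 0.32). STRA6 and RDH10 were above shControl in both clones.

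Nephric partners and targets of HOX11 had 10 of 14 genes measured, 9 tested and none passed. In the clones 8 were below shControl and SALL1 was equal, with a median of -0.12, RET standing at -0.31. The other was EYA1, a coactivator that works with HOX11 and PAX2, which stood at 6.31 in shControl, 8.19 in shTET1#1 and 7.66 in shTET1#2 (1.61 ± 0.25, limma adjusted p = 0.424). The vector and plasmid arrays stood at 8.15 to 8.65, so shControl alone was low for EYA1 while it was high for the HOX genes named above. SIX2 stood at 8.72 to 9.04 with the plasmids, 9.13 with the vector and 9.36 to 9.67 in the clones. Its plasmid arrays thus lay below the other 4, as in 5.79% of all clusters, the highest of them close to the vector. Of the 10 nephric genes, 3 were below the vector in the fit with the plasmids and 7 above.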

How the data were processed

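Per the submitters' processing notes, the authors used Affymetrix Expression Console 1.3.1 and RMA, and what was deposited are log2 signals. Neither what each tool did nor the genome build is given in the sources used here. RMA normalizes arrays to each other, so a shift shared by most genes would not be seen. Of 53981 rows, 364 held no value. The platform annotation gave 16098 of the remaining 53617 transcript clusters 1 gene symbol and the other 37519 none. Samples were grouped by their titles.

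A single linear model of all 8 arrays was fitted with limma 3.58.1 (lmFit, then eBayes; R 4.3.3) over the 28946 clusters with at least 2 arrays above their own median. Terms were shControl, shTET1, vector, wild-type, mutant and construct (plus or minus 0.5), leaving 2 residual degrees of freedom. These are the gap between the shTET1 clones and that between CD and FL in wild-type minus mutant, so p-values and SEs measure this spread and not repeat cultures. P-values were adjusted by Benjamini-Hochberg, and 0.05 was the threshold. Precision is limited by the number of arrays.

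Members and lists were chosen with earlier results of these data known. Members named with values were HOXB5, HOXB6, in each contrast the 5 highest and 5 lowest of those tested whose readings shared a sign, and the 3 whose readings differed most. Those with an unadjusted p under 0.05, or arrays that do not overlap, were also named, as were HOXC8, HOXD4, MEIS1, MEIS2 and others, chosen after their values were seen. Differences between single arrays carry no test.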

Additional observations from a re-analysis of the deposited data

Results flagged for a closer look

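Wild-type minus mutant had opposite signs in the CD and FL constructs for 14 of the 26 HOX genes tested, beside 46.1% of clusters, each with 1 array a side, and the difference between constructs was not tested. The 7 for which the report gives this contrast follow, those furthest apart first. HOXA2 stood at -0.096 with CD and 0.39 with FL on the log2 scale, a gap of 0.49. HOXB2 stood at -0.22 with CD and 0.18 with FL, a gap of 0.40. HOXD1 stood at 0.35 with CD and -0.029 with FL, a gap of -0.38. HOXC9 stood at -0.20 and 0.15, a gap of 0.35, and HOXD9 at -0.12 and 0.097, a gap of 0.21. For HOXB8 (-0.012 and 0.080, a gap of 0.092) and HOXB5 (-0.0037 and 0.066, a gap of 0.069) both values were close to 0.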

How the results depend on the processing

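No paired analysis was possible because replicate numbers are given within the shTET1 group alone. Wild-type and mutant plasmids are matched by construct in the model itself. The number of calls changed in 2 settings. With 1 transcript cluster per symbol, 5 genes passed for shTET1 minus shControl, none of them a member. Centring on array medians gave 1 call for plasmids minus vector, TET1 itself. With the vector in place of shControl the HOX median was -0.032 and 15 HOX genes were below 0, HOXB5, HOXB6, HOXB2, MEIS3 and TGIF1 standing at 0.035, 0.13, 0.12, -0.28 and -0.22. The TALE and CDX median in the clones was 0.091 with the vector, -0.046 after centring, -0.072 over members that passed the filter, and -0.080 to -0.023 leaving out each clone. PKNOX1 stood at -0.030 after centring. Leaving out a plasmid array leaves only the CD or the FL pair complete, so wild-type minus mutant then repeats that pair's reading and is no further check. Its range was thus -0.013 to 0.055 for the HOX median and -0.0037 to 0.066 for HOXB5. For HOXA2, HOXB2 and HOXD1 it was -0.096 to 0.39, -0.22 to 0.18 and -0.029 to 0.35. With each plasmid array left out in turn, plasmids minus vector gave a TALE and CDX median of 0.0077 to 0.042. That median was -0.030 with all clusters of a symbol averaged. FL minus CD gave 0 to 0.043 for the TALE and CDX median, -0.0085 over members that passed, -0.047 to 0.44 for HOXA2 and -0.30 to 0.079 for HOXD1. These ranges of FL minus CD likewise repeat its readings in the wild-type and mutant pairs. The causes were not tested. The alternatives counting HOX genes below 0 and plasmid arrays below the other 4 were chosen after seeing the data. Signals near the array median limit HOXD1, HOXD12, HOXD-AS2, HOTAIR and MIR615.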

Other observations

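HOXB7, a central paralog, held the same value to 3 decimals on 6 of the 8 arrays (6.61), so its differences from the vector were 0 with every plasmid. HOXB13 had 4 equal arrays, and 932 of the 28946 clusters tested had at least 4. PBX2 was read by 6 transcript clusters. The one used stood at 7.98 in shControl and the other 5 at 7.66 to 7.70. HOXD4 was read by 2, which stood at 8.04 and 6.85 in shTET1#1 and were both below the vector with mutant and wild-type FL.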
